A study of Mus musculus with 35 samples.

Results

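The 74 protein-coding mouse genes described here build, regulate or are named for the axoneme, the microtubule shaft of the motile cilium. They were chosen by a rule on symbols, set with earlier results of these data known: every protein-coding gene of GENCODE release M21 whose symbol starts with Dnah, Dnaic, Dnaaf, Cfap, Rsph, Drc, Tekt or Spef, and in addition Ccdc39, Ccdc40, Hydin and Foxj1. All 74 were among the 54119 genes of the deposited files.

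A motile cilium has a ring of 9 doublet microtubules around a central pair. Outer and inner dynein arms pull neighbouring doublets past each other, radial spokes carry signals between the central apparatus and the arms, and a molecular ruler sets the axial repeat at which arms and spokes dock. In the brain such cilia stand in tufts on ependymal cells, which line the ventricles and move cerebrospinal fluid. Foxj1 is the forkhead transcription factor that switches on many of these genes.

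The 35 libraries came from male C57BL/6JRj mice kept for 4 months on standard chow (SC) or on HFHS, a diet rich in fat and sugar (58% by its label), starting at 8 to 9 weeks of age. Cells were dissociated from hypothalamus, hippocampus or cortex and enriched on magnetic columns with an antibody to ACSA2, an astrocyte surface antigen, and each library pooled 2 animals. The groups held 6 hypothalamus SC, 5 hypothalamus HFHS, 5 hippocampus SC, 7 hippocampus HFHS, 6 cortex SC and 6 cortex HFHS libraries. Both diets shared strain, sex and sorting. Hypothalamus and hippocampus were sorted on small columns and cortex on larger ones with scaled-up volumes, so region and sorting scale cannot be told apart for cortex. The tests measure the spread between pools of 2 animals.

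The libraries held 47578560 to 65982495 estimated reads, and 68 to 73 of the 74 genes had reads in each. Astrocyte markers (12 genes, such as Aldoc, Slc1a3 and Gja1) were present in every group but summed to a mean of 13868 TPM (a transcript's share of all transcripts, corrected for length) in cortex SC, 3610 in hippocampus SC and 3248 in hypothalamus SC. Oligodendrocyte markers (9 genes, such as the myelin genes Mbp and Mobp) summed to 27836, 60430 and 78190 TPM in the same groups. In the edgeR fit of hypothalamus against hippocampus on SC, which is scaled differently, their median log2 fold change was -1.17, with 3 of 9 called lower and 0 higher. In that fit 4.13% of all genes were called lower and 5.86% higher. In 3 libraries, hypothalamus SC 6, cortex SC 6 and cortex HFHS 6, the mean transcript length weighted by reads was 2483, 1922 and 2179 bases, against 2530 to 2985 in the other libraries. In bulk RNA, fewer cells of a type and less RNA per cell cannot be told apart.

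The axoneme genes together were most abundant in hypothalamus, lower in hippocampus and lowest in cortex. Their summed TPM in hypothalamus on SC ran from 3411 over a median of 4125 to 5660 (mean 4220 ± 836, SD, n = 6), which is 0.422% of all transcripts. In hippocampus on SC the 5 libraries had 1447, 1151, 1648, 1920 and 2347 TPM (mean 1702 ± 457, SD, n = 5). Cortex on SC ran from 340 over a median of 420 to 458 TPM (mean 414 ± 41.9, SD, n = 6). No library of one region on SC overlapped a library of another. The ratio of means was 10.2 for hypothalamus to cortex, 4.12 for hippocampus to cortex and 2.48 for hypothalamus to hippocampus.

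On HFHS the order was the same. The 5 hypothalamus libraries had 3299, 2339, 2803, 5234 and 4127 TPM (mean 3560 ± 1146, SD, n = 5). Hippocampus ran from 752 over a median of 1985 to 2743 TPM (mean 1867 ± 660, SD, n = 7), and cortex from 381 over a median of 426 to 584 TPM (mean 451 ± 76.9, SD, n = 6). Hypothalamus and hippocampus overlapped on this diet, since hypothalamus HFHS 2 lay below hippocampus HFHS 3, and cortex lay below both. HFHS over SC, the ratio was 0.844 in hypothalamus, 1.10 in hippocampus and 1.09 in cortex, and the diets overlapped in each region.

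**Figure D1:**
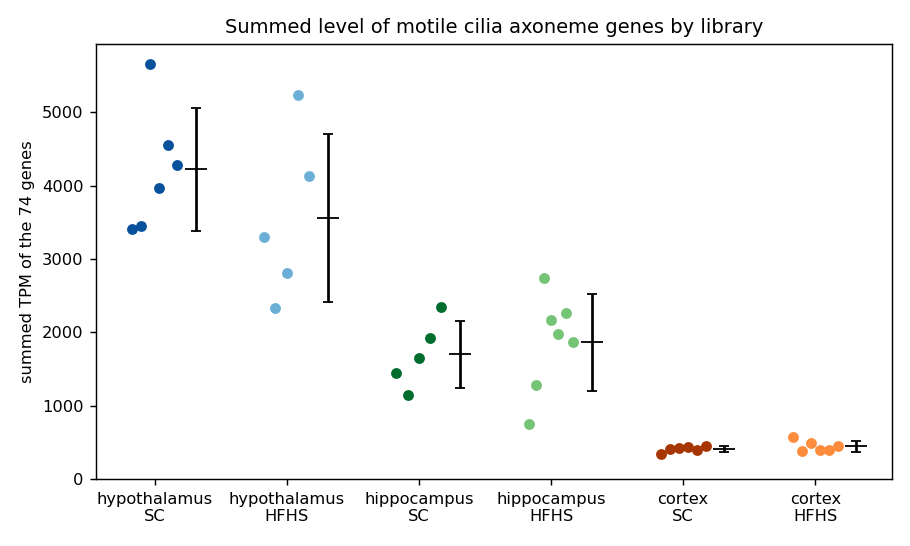
Summed TPM of the 74 axoneme genes (vertical axis) in each library (points), by region and diet, with the group mean and SD (bars). Hypothalamus lies highest, with means of 4220 and 3560, cortex lies lowest, with means of 414 and 451, and the 2 diets overlap in every region.

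A few genes carried most of the summed level. In hypothalamus on SC, 10 genes made up 50.5% of it, led by the radial spoke gene Rsph1 with 11.2%. In cortex on SC the first 7 genes made up 66.8%: Cfap36, Rsph9, Dnaic1, Cfap20, Cfap298, Rsph3b and Rsph3a. The same 7 genes made up 20.6% of the sum in hypothalamus. These 7 genes were then left out, a choice made after the values were seen. The other 67 genes summed to 3352 TPM in hypothalamus, 1214 in hippocampus and 137 in cortex on SC. The ratios to cortex were 24.4 for hypothalamus and 8.84 for hippocampus, against 10.2 and 4.12 with the 7 genes included. Since the 7 genes were picked for their high level in cortex, leaving them out had to raise these ratios. The rise is therefore no further evidence of a difference between regions.

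**Figure D2:**
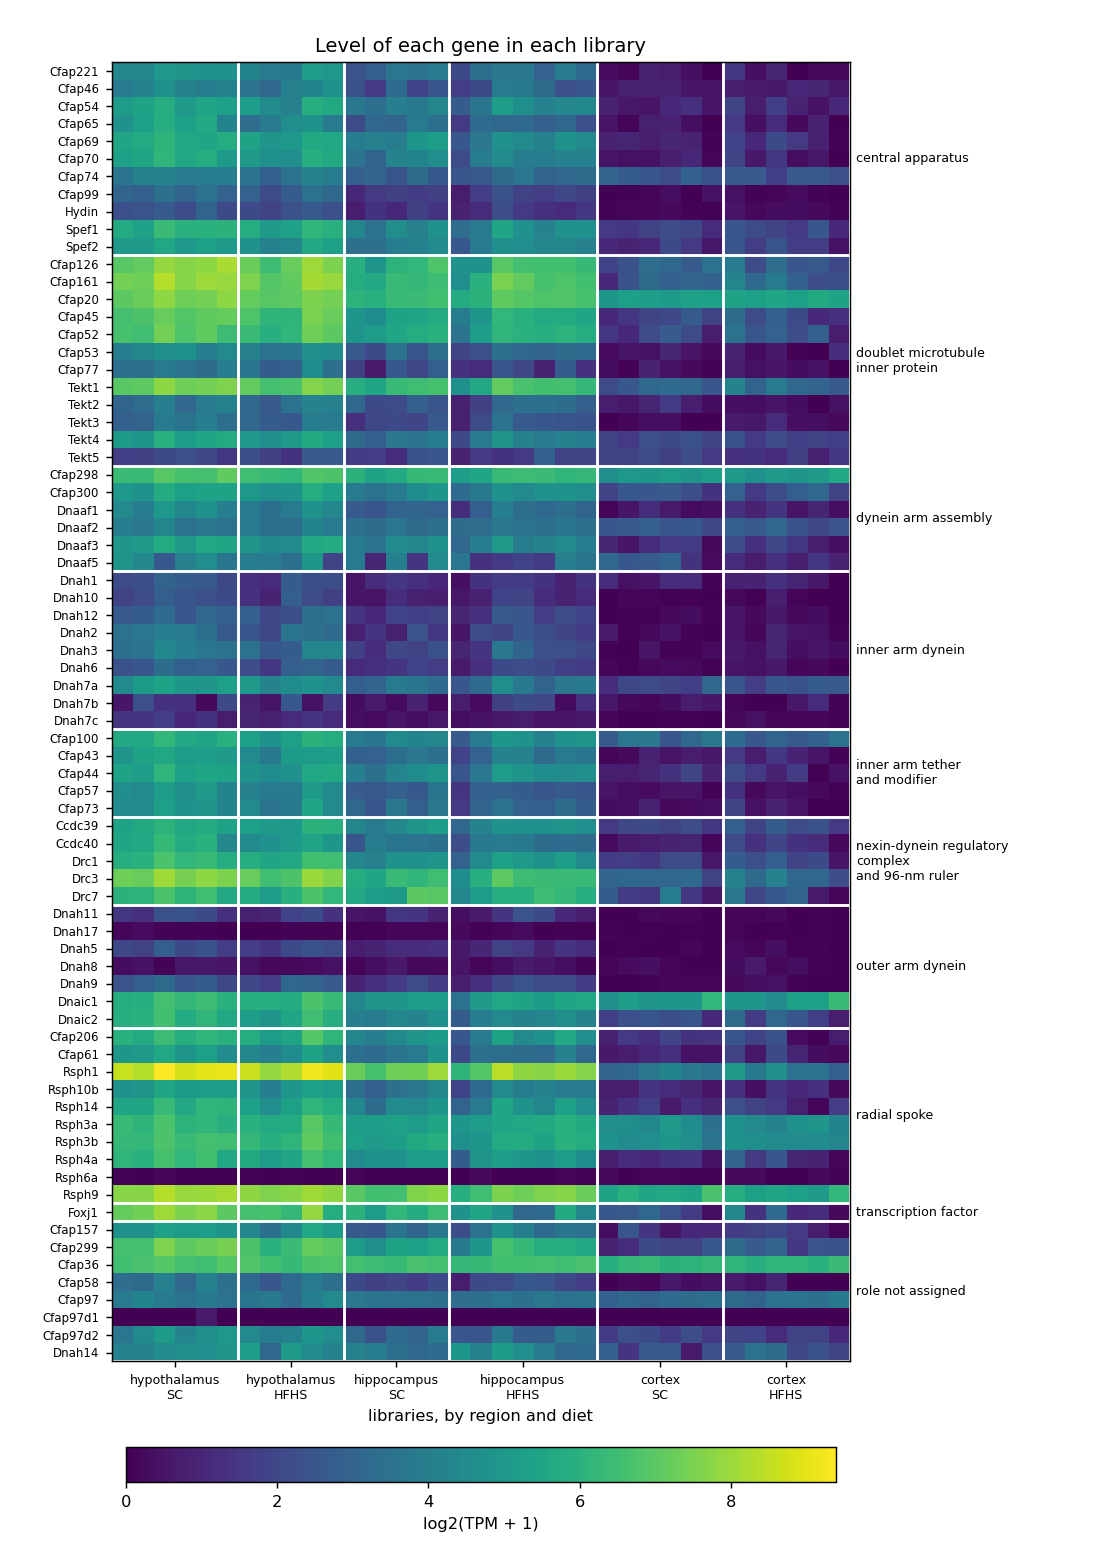
Level of each of the 74 genes (rows, grouped by place in the axoneme) in each of the 35 libraries (columns, grouped by region and diet), as log2(TPM + 1). Most rows are bright in hypothalamus, intermediate in hippocampus and dark in cortex, while Cfap36, Cfap20, Cfap298, Rsph9 and Dnaic1 stay bright in cortex and Rsph6a and Cfap97d1 are dark in all regions.

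Gene by gene, 66 of the 72 axoneme genes tested were higher in hypothalamus than in cortex on SC, and none was lower (edgeR quasi-likelihood test, Benjamini-Hochberg adjusted p under 0.05). Across all 21574 genes tested, 17.7% were called higher and 18.3% lower. Between hippocampus and cortex on SC 56 of 72 were called higher, against 15.4% of all genes, and none was called lower, against 15.3%. Between hypothalamus and hippocampus on SC 38 of 72 were called higher, against 5.86% of all genes, and none lower, against 4.13%. The median log2 fold change of the axoneme genes was 4.72, 3.03 and 1.52 in these 3 comparisons, where that of all genes was 0.06, 0.04 and 0.02. Rsph6a and Cfap97d1 did not pass the filter on low counts. Rsph6a, a sperm relative of the spoke head genes, averaged at most 0.0998 TPM in any group, and Cfap97d1 was at 0 in 34 libraries.

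On HFHS 66 of 72 were called higher in hypothalamus than in cortex, 63 in hippocampus than in cortex and 14 in hypothalamus than in hippocampus, against 14.6%, 13.4% and 4.24% of all genes. None was called lower in any of them, against 9.21%, 10.8% and 2.18% of all genes. The medians were 4.01, 2.96 and 0.99. The hypothalamus to cortex call held on both diets for 65 genes. The hippocampus to cortex call held on both for 56. The hypothalamus to hippocampus call held on both for 11 genes, 28.9% of those called on SC and 78.6% of those called on HFHS. All 3 comparisons on a diet share libraries pairwise and are not independent of each other.

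The counts between hypothalamus and hippocampus moved with single libraries, as did the calls over all genes. On SC the 38 became 24 without hippocampus SC 2 and 25 without hippocampus SC 1, where the share of all genes called higher went from 5.86% to 3.88% and 3.27%. On HFHS the 14 became 4 without hypothalamus HFHS 4 and 7 without hypothalamus HFHS 5, where the share of all genes went from 4.24% to 2.66% and 3.01%. It became 9 without each of hypothalamus HFHS 1 and hippocampus HFHS 1, 5 and 7, beside 3.64%, 3.17%, 3.33% and 4.33% of all genes. Without hippocampus SC 1, Rsph6a entered the test between hippocampus and cortex and was called lower in hippocampus (log2 fold change -5.82, edgeR adjusted p = 0.0233).

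Groups that do not overlap were also counted, without a model. On SC, every hypothalamus library lay above every cortex library for 66 of the 72 genes (16.1% of all genes), every hippocampus library above every cortex library for 60 (16.9%), and every hypothalamus library above every hippocampus library for 54 (8.07%). On HFHS these counts were 63 (11.9%), 43 (4.96%) and 14 (2.99%).

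The edgeR fold changes are centred so that the median gene lies near 0, and TPM is not. In TPM, the median of all genes tested was itself 0.57 higher on the log2 scale in hypothalamus than in cortex on SC, 0.47 higher in hippocampus than in cortex and 0.09 higher in hypothalamus than in hippocampus. The median over the axoneme genes was 5.19, 3.59 and 1.57 on that scale. Of the 72 genes, 70, 66 and 70 lay above the median of all genes in the 3 comparisons. The calls over all genes also split differently between edgeR and limma on log2(TPM + 1), which differ in test, scaling and pseudocount together: 49.2% of calls between hypothalamus and cortex on SC were higher by edgeR and 83.7% by limma. The same splits were 50.2% and 79.5% for hippocampus to cortex and 58.6% and 81.3% for hypothalamus to hippocampus. For the HFHS libraries edgeR gave 61.4%, 55.4% and 66.1% for these comparisons, and limma 80.6%, 73.7% and 72.9%. By limma, 69, 63 and 60 axoneme genes were called higher on SC, against 34.2%, 26.7% and 10.8% of all genes. The sign differed between edgeR and the TPM ratio for Cfap36 and Tekt5 from hypothalamus to cortex, for Cfap36, Cfap74, Dnaic1 and Tekt5 from hippocampus to cortex, and for Dnah8 and Drc7 from hypothalamus to hippocampus.

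The promoters of the axoneme genes were also read for short motifs. A link of these motifs to the differences between regions was not tested. RFX factors, partners of Foxj1 in ciliated cells, are known to bind an X-box, an inverted repeat whose unit reads GTTGCC or close to it. The RefSeq promoter table for GRCm38.p6 held a window from 250 bases before to 50 bases after the gene start for 61 of the 74 genes. GTTGCC on either strand stood in 24 of the 61 (39.3%), and in 14.1% of all 27025 genes with a window of that length. The 24 include Dnah7a, Dnah7b and Dnah7c, which are near-identical copies. The following 7 stretches of 30 bases, from genes of different axoneme parts, show the match in capitals, which reads GGCAAC where the unit lies on the other strand. Each is written 5′ to 3′ along its gene.
Hydin: cactctgcgGTTGCTGTGGCAACagatggt
Cfap44: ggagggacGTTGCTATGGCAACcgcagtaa
Cfap298: gggttttgGTTGCCCGGGCAACagctactt
Tekt1: GGCAACgttgcgtccgtccgGTTGCCatag
Cfap161: tcttgaccaactGGCAACtGGCAACtgcct
Drc1: caggtgactgctttcccttGGCAACggctt
Dnaic2: ccagggttgctaGGCAACtggtaaactccg

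The Hydin, Cfap44 and Cfap298 stretches hold a full inverted repeat, GTTGCC, then any 3 bases, then GCAAC, on one strand or the other, which 3 of the 61 (4.92%) and 0.174% of all windows hold. Tekt1 and Cfap161 hold 2 copies of the unit, and Drc1 and Dnaic2 hold 1 within the stretch. On GRCm38.p6 the stretches lie at chr8:110266947-110266976 (Hydin, plus strand), chr16:44394764-44394793 (Cfap44, plus strand), chr16:90935016-90935045 (Cfap298, minus strand) and chr11:72361888-72361917 (Tekt1, minus strand). The others lie at chr7:83794888-83794917 (Cfap161, minus strand), chr5:30281363-30281392 (Drc1, plus strand) and chr11:114727381-114727410 (Dnaic2, plus strand). Those of Hydin, Cfap298, Drc1 and Dnaic2 overlap an annotated exon, and the other 3 overlap none in GENCODE M21. A match is a description of the letters and not a bound site.

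In all, 10 strings were searched on both strands, and the X-box strings overlap one another. The unit followed directly by ATGG stood in 2 of the 61 (3.28%) and in 0.633% of all windows. The unit, any 2 bases and then GGNAAC stood in 1 of the 61 (1.64%) and in 0.355%. The same form with GTNNCC for the unit stood in 4 of the 61 (6.56%) and in 1.49%. GTNNCC, any 3 bases and then GNNAC stood in 27.9% and 5.26%. The unit, any 2 bases and then G stood in 23.0% and 5.74%. The forkhead string GTAAACA stood in 4 of the 61 (6.56%) and in 4.05% of all windows. The general promoter strings CCAAT (37.7% and 41.1%) and TATAAA (4.92% and 15.7%) were searched for comparison. Foxj1, Rsph1 and Rsph4a were among the 13 genes without a window.

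Foxj1, the regulator, was at 183 ± 49.7 TPM in hypothalamus on SC (SD, n = 6; lowest 128, median 175, highest 264). The 5 hippocampus SC libraries had 64.7, 35.7, 72.6, 53.1 and 86.5 TPM, and cortex SC ran from 0.287 over a median of 4.63 to 7.85. On SC the 3 regions did not overlap for Foxj1. It was higher in hypothalamus than in cortex by 5.16 ± 0.72 on the log2 scale (SE; edgeR adjusted p = 8.61e-07) and in hippocampus than in cortex by 3.60 ± 0.68 (adjusted p = 1.98e-04). The difference between hypothalamus and hippocampus on SC, 1.56 ± 0.65, did not pass (adjusted p = 0.131), while on HFHS it was 2.04 ± 0.61 and passed (adjusted p = 0.0375).

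Radial spoke genes formed the most abundant group, with a summed 1153 ± 238 TPM in hypothalamus, 491 ± 154 in hippocampus and 119 ± 14.4 in cortex on SC. All 9 that were tested were called higher in hypothalamus than in cortex (median log2 fold change 4.71), and 4 of them were higher in hypothalamus than in hippocampus. Rsph1, a spoke head protein, was at 473 ± 121 TPM in hypothalamus SC (lowest 322, median 471, highest 667). It was at 154, 100, 160, 162 and 256 in the hippocampus SC libraries and from 6.87 over 11.4 to 18.0 in cortex SC. The 3 regions did not overlap, and its log2 fold changes were 4.71 ± 0.40 to cortex (edgeR adjusted p = 1.27e-10) and 1.42 ± 0.37 to hippocampus (adjusted p = 0.0117).

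Rsph9 also belongs to the spoke head but kept a level in cortex. Cortex SC ran from 41.0 over 46.6 to 101 TPM, the highest being cortex SC 6, one of the 3 libraries of short transcripts. Hypothalamus SC ran from 207 over 246 to 326, and the hippocampus SC libraries had 126, 92.5, 93.4, 193 and 223, so hippocampus overlapped both other regions. The log2 fold change from hypothalamus to cortex was 1.17 ± 0.42 (edgeR adjusted p = 0.0273), and that from hippocampus to cortex, 0.49 ± 0.43, did not pass (adjusted p = 0.415). Rsph3b, a spoke stalk gene, was at 87.5 ± 13.5, 43.2 ± 10.8 and 23.0 ± 6.52 TPM in hypothalamus, hippocampus and cortex SC. Reads of Rsph3b can also fit its close copy Rsph3a, so how they split between these genes is uncertain.

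The central apparatus, the pair of microtubules and its projections, had 11 genes, and all 11 were called higher in hypothalamus than in cortex on SC, with a median log2 fold change of 5.28. Between hypothalamus and hippocampus 7 of the 11 passed. Spef1, a microtubule-bundling protein, was at 60.7 ± 14.0 TPM in hypothalamus SC (lowest 40.8, median 61.5, highest 82.7). The hippocampus SC libraries had 18.8, 10.6, 24.1, 16.0 and 25.7, and cortex SC ran from 1.14 over 2.33 to 3.57. Its regions did not overlap (4.09 ± 0.32 to cortex, edgeR adjusted p = 4.05e-11; 1.58 ± 0.31 to hippocampus, adjusted p = 0.0013).

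Hydin, whose loss is known to cause hydrocephalus in mice, is a large projection protein and was low per length. It ran from 3.16 over 4.07 to 7.04 TPM in hypothalamus SC, had 0.659, 1.57, 1.07, 2.39 and 1.63 in the hippocampus SC libraries and ran from 0.0281 over 0.0835 to 0.181 in cortex SC, with no overlap. The log2 fold change to cortex was 5.23 ± 0.41 (edgeR adjusted p = 4.56e-11) and to hippocampus 1.54 ± 0.37 (adjusted p = 0.00739). Cfap69 and Cfap54, also of the central apparatus, were at 52.0 ± 8.72 and 41.0 ± 8.89 TPM in hypothalamus SC and at 0.758 ± 0.349 and 0.805 ± 0.420 in cortex SC.

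The doublet microtubule inner proteins, which line the inside of the doublets, summed to 1107 ± 250 TPM in hypothalamus, 402 ± 113 in hippocampus and 68.1 ± 12.8 in cortex on SC. Of 12 genes, 11 were called higher in hypothalamus than in cortex and 8 higher in hypothalamus than in hippocampus. Cfap161 ran from 157 over 225 to 321 TPM in hypothalamus SC, had 55.5, 49.1, 79.7, 74.2 and 86.7 in the hippocampus SC libraries and ran from 1.10 over 6.46 to 8.37 in cortex SC. The 3 regions did not overlap. Cfap126 had means of 202 ± 62.8, 66.9 ± 29.8 and 6.68 ± 3.10 TPM, and the tektin Tekt1, a filament protein of the doublets, 166 ± 36.3, 74.9 ± 22.7 and 6.25 ± 2.19.

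Cfap20, the protein of the seam between the doublet's tubules, differed from these in its cortex level. It was at 175 ± 37.5 TPM in hypothalamus SC, at 66.2, 61.5, 80.7, 82.8 and 91.5 in the hippocampus SC libraries and at 36.6 ± 4.06 in cortex SC (lowest 29.9, median 37.6, highest 40.8). The regions still did not overlap. Its log2 fold change to cortex was 1.57 ± 0.27 for hypothalamus (edgeR adjusted p = 2.06e-05) and 0.49 ± 0.27 for hippocampus, which did not pass (adjusted p = 0.177). Tekt5, a tektin known from sperm, was at 2.84 ± 0.746, 2.87 ± 1.35 and 2.81 ± 0.630 TPM and passed in no region comparison.

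The nexin-dynein regulatory complex links neighbouring doublets, and Ccdc39 with Ccdc40 forms the ruler of the axial repeat. All 5 genes of this group were called higher in hypothalamus than in cortex on SC and 4 of the 5 higher in hypothalamus than in hippocampus. Drc3 ran from 147 over 180 to 261 TPM in hypothalamus SC, had 55.8, 45.2, 78.5, 71.7 and 90.9 in the hippocampus SC libraries and ran from 2.62 over 7.62 to 8.25 in cortex SC, with no overlap (4.31 ± 0.32 to cortex, edgeR adjusted p = 2.69e-11). Drc1 was at 71.7 ± 18.6, 23.2 ± 5.29 and 2.29 ± 1.12 TPM. Ccdc39 was at 50.0 ± 9.17, 23.1 ± 9.06 and 2.74 ± 0.725 TPM; 16.9% of its exon bases lie opposite exons of Ttc14, whose reads the strand-free libraries cannot separate. Ccdc40 ran from 19.5 over 51.6 to 77.9 TPM in hypothalamus SC, and its 19.5 came from the library of short transcripts, hypothalamus SC 6. Its log2 fold change to cortex was 6.25 ± 0.67 (adjusted p = 7.84e-09), the largest of the list in that comparison.

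Drc7 was the exception of this group and was singled out after its values were seen. The hippocampus SC libraries had 49.1, 37.8, 32.0, 130 and 122 TPM, where hypothalamus SC ran from 50.0 over 67.2 to 106 and cortex SC from 0.536 over 2.00 to 14.9. Hippocampus SC 4 and 5 thus lay above every hypothalamus library and the other 3 below. The log2 fold change from hypothalamus to hippocampus was -0.05 ± 0.61 on SC (edgeR adjusted p = 0.974) and 0.14 ± 0.59 on HFHS (adjusted p = 0.937). Beside it, the choroid plexus marker Ttr, which encodes the thyroid hormone carrier of that epithelium, was at 13414, 5203, 71.1, 27369 and 30852 TPM in the same 5 libraries, and hippocampus SC 4 and 5 are the highest for both genes. Without hippocampus SC 4, SC 5 and HFHS 5, the 3 libraries richest in Ttr, the log2 fold change on SC was 0.81. Since hippocampus SC 4 and 5 were also the highest for Drc7, leaving them out had to raise this value. It therefore cannot tell where the Drc7 reads came from. Relative to Tekt1, Drc7 was at 86.2%, 82.3%, 39.1%, 144% and 121% in the hippocampus SC libraries and at 26.7% to 52.0% in hypothalamus SC. The part of choroid plexus RNA in the Drc7 level was not tested.

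Outer arm dyneins, the main motors of the beat, had 7 genes, of which 5 were called higher in hypothalamus than in cortex on SC and 1, Dnaic2, higher in hypothalamus than in hippocampus. Dnaic2, an intermediate chain, ran from 47.3 over 60.6 to 91.3 TPM in hypothalamus SC, had 15.3, 13.7, 18.5, 17.5 and 25.4 in the hippocampus SC libraries and ran from 1.06 over 3.81 to 4.48 in cortex SC, with no overlap (3.84 ± 0.36 to cortex, edgeR adjusted p = 7.74e-10; 1.71 ± 0.35 to hippocampus, adjusted p = 0.00208). The heavy chain Dnah9 was at 5.39 ± 1.86, 1.99 ± 0.940 and 0.0748 ± 0.0444 TPM. Dnah8 and Dnah17, heavy chains known from sperm, were at most 0.357 and 0.0875 TPM in any group mean and passed in no region comparison.

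Dnaic1, the other intermediate chain, looked different at the level of the gene. It ran from 55.3 over 68.8 to 95.3 TPM in hypothalamus SC, had 18.9, 28.1, 28.8, 35.9 and 34.5 in the hippocampus SC libraries and ran from 24.8 over 29.7 to 73.9 in cortex SC. Cortex and hippocampus overlapped (0.14 ± 0.46, edgeR adjusted p = 0.844). Its transcripts, looked at after these values were seen, did not follow each other. The longer coding transcript, Dnaic1-201, was at 63.9 ± 15.4 TPM in hypothalamus SC, 22.1 ± 6.61 in hippocampus SC and 1.91 ± 0.843 in cortex SC. Its ratio between hypothalamus and cortex was 33.4, where the gene gave 1.95. That ratio leaves out Dnaic1-202, a coding transcript of 500 bases that ran the other way between these regions. Dnaic1-202 was at 0.960 ± 1.62 TPM in hypothalamus SC, 0 in hippocampus SC and 2.71 ± 3.17 in cortex SC. The retained-intron transcript Dnaic1-203, of 965 bases at chr4:41631644-41638158 on GRCm38, was at 7.64 ± 1.72, 7.08 ± 4.64 and 32.5 ± 17.8 TPM. On HFHS the ratio between hypothalamus and cortex was 18.9 for Dnaic1-201 and 1.78 for the gene. Dnaic1-202 was at 2.44 TPM in hypothalamus HFHS and 3.42 in cortex HFHS.

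Dnaic1-203 meets the gene Enho on the opposite strand and shares 15 of its bases (1.55%) with Enho's exons. Enho, which encodes a secreted peptide, was at 579 TPM in cortex SC, 134 in hippocampus SC and 171 in hypothalamus SC, so it was highest where Dnaic1-203 was highest. These libraries keep no strand, and the part of Enho reads in Dnaic1-203 was not tested. For the inner arm gene Dnah7a likewise, most of its level came from Dnah7a-202, a processed transcript of 732 bases. It had 31.6, 9.39 and 3.43 TPM in hypothalamus, hippocampus and cortex SC, and the coding Dnah7a-201 was at 0.473, 0.200 and 0.00142. Other genes had low coding shares too, among them Dnah3, with 23.7% of its level in hypothalamus SC and 46.0% in cortex SC. For Cfap44 these shares were 33.9% and 15.2%, and for Rsph3a 28.6% and 41.4%.

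**Figure D3:**
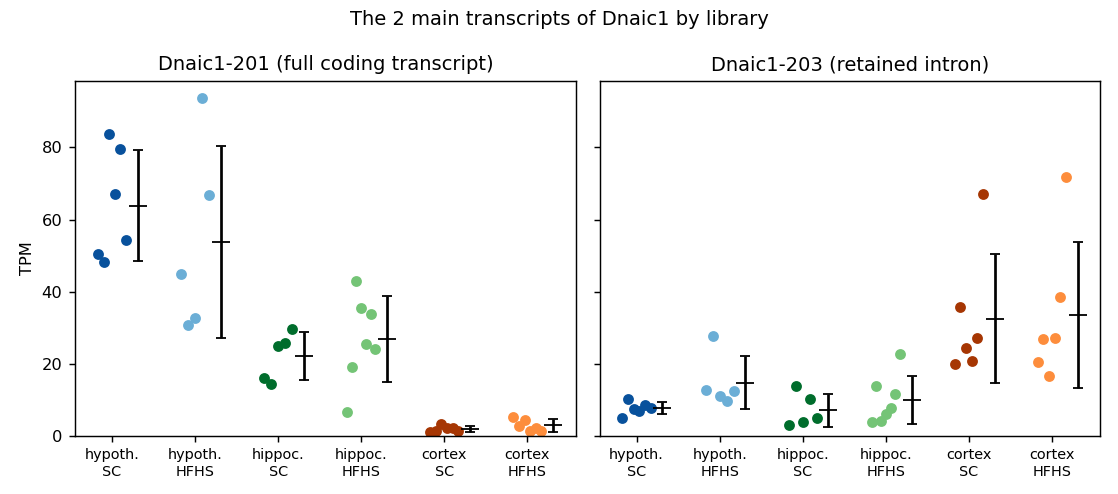
TPM of the longer coding transcript Dnaic1-201 (left) and the retained-intron transcript Dnaic1-203 (right) in each library (points). Libraries are grouped by region and diet, with group mean and SD (bars). Dnaic1-201 averages 63.9 in hypothalamus SC and 1.91 in cortex SC, and Dnaic1-203 averages 7.64 and 32.5.

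All 9 inner arm dynein genes, heavy chains that shape the bend, were called higher in hypothalamus than in cortex on SC (median log2 fold change 5.02), and 6 of the 9 higher in hypothalamus than in hippocampus. Dnah3 ran from 9.74 over 11.4 to 19.7 TPM in hypothalamus SC, had 2.40, 1.28, 3.04, 2.57 and 4.13 in the hippocampus SC libraries and ran from 0.0202 over 0.0780 to 0.415 in cortex SC, with no overlap. Dnah2 was at 10.8 ± 3.27, 1.87 ± 1.43 and 0.214 ± 0.229 TPM. Reads of Dnah7a, Dnah7b and Dnah7c, near-identical copies, may be split wrongly among them. The call of Dnah7b was made on SC and not on HFHS (log2 fold changes 2.06 ± 0.76 and 1.79 ± 0.77, edgeR adjusted p = 0.0321 and 0.0915).

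The 5 tether and modifier genes, which hold the inner arms to the doublet, were all called higher in hypothalamus than in cortex on SC (median log2 fold change 5.57). Cfap44 ran from 37.4 over 42.0 to 71.1 TPM in hypothalamus SC, had 15.2, 9.98, 17.4, 22.8 and 28.0 in the hippocampus SC libraries and ran from 0.692 over 0.919 to 2.85 in cortex SC. Cfap43, its partner in the tether, was at 37.0 ± 6.49, 8.92 ± 2.31 and 0.468 ± 0.293 TPM. Neither overlapped between regions. Cfap100 kept more in cortex, with 54.3 ± 10.7, 16.6 ± 3.84 and 9.08 ± 3.62 TPM.

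Dynein arm assembly factors work in the cytoplasm before the arms enter the cilium. As a group they had the smallest median log2 fold change from hypothalamus to cortex on SC, 2.24, with 5 of 6 called. Dnaaf3 ran from 28.5 over 39.5 to 54.3 TPM in hypothalamus SC, had 13.3, 11.1, 22.2, 19.5 and 26.0 in the hippocampus SC libraries and ran from 0.161 over 1.08 to 2.22 in cortex SC, with no overlap. Cfap298 was at 103 ± 21.0, 63.4 ± 16.8 and 31.1 ± 4.97 TPM, with a log2 fold change to cortex of 0.93 ± 0.33 for hypothalamus (edgeR adjusted p = 0.0243) and 0.24 ± 0.34 for hippocampus (adjusted p = 0.621). An unstranded count cannot separate 44.2% of its exon bases from Gm49727 on the other strand.

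Among the 8 genes given no place in the axoneme, Cfap299 followed the rest (139 ± 38.5, 38.5 ± 10.4 and 2.64 ± 1.49 TPM in hypothalamus, hippocampus and cortex SC). Cfap36 and Cfap97 did not. Cfap36, a binding partner of a small GTPase of the ARL family, was at 103 ± 12.6, 92.0 ± 8.76 and 69.9 ± 7.48 TPM and was the most abundant list member in cortex; its log2 fold change to cortex was -0.16 ± 0.23 for hypothalamus (edgeR adjusted p = 0.612). Cfap97 was at 13.1 ± 2.53, 10.9 ± 0.827 and 8.16 ± 1.19 TPM. In hypothalamus against cortex on SC, the genes that did not pass were Cfap36, Cfap97, Dnaaf5, Dnah8, Dnah17 and Tekt5.

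**Figure D4:**
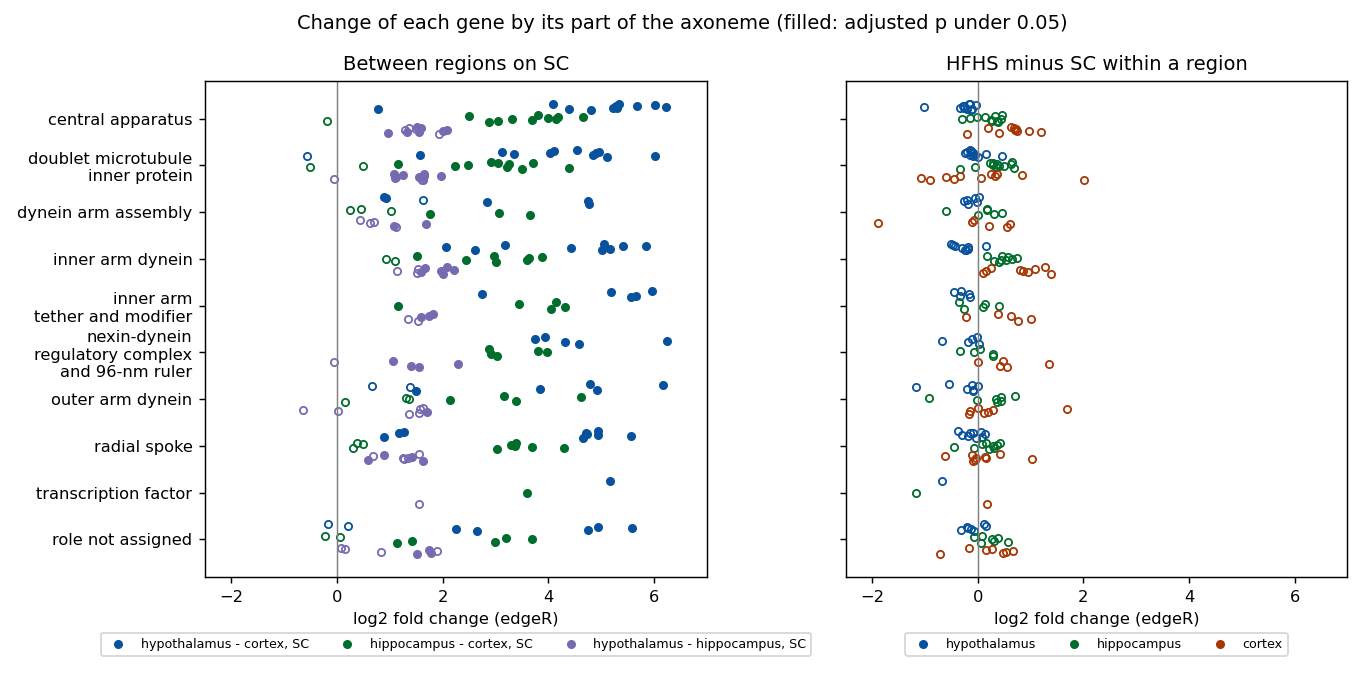
Log2 fold change (edgeR) of each axoneme gene (points) by its place in the axoneme (rows), between regions on SC (left) and between HFHS and SC within a region (right), with filled points for an adjusted p under 0.05. Between regions 66, 56 and 38 of 72 points are filled, all to the right of 0, and no point is filled for diet.

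Genes of the same pathway outside the list were read from lists chosen by known function. Of 28 other motile cilium genes, 27 were tested, and 24 were called higher in hypothalamus than in cortex on SC, 23 in hippocampus than in cortex and 17 in hypothalamus than in hippocampus, with median log2 fold changes of 4.50, 2.88 and 1.50. Nme5, a spoke-associated kinase, was at 294, 135 and 26.3 TPM in the SC groups of hypothalamus, hippocampus and cortex, and Enkur, a doublet inner protein, at 162, 47.3 and 3.71. In hippocampus 2 of the 27 were called lower than in cortex, among them Nme7 (log2 fold change -1.13, edgeR adjusted p = 0.00314). Intraflagellar transport and BBSome genes, which serve primary cilia as well, had smaller medians in the 3 comparisons, 0.96, 0.57 and 0.53 in the same order. Of these 22 genes, 17, 12 and 3 were called higher, and 1 was called lower in hippocampus than in cortex. Of all genes tested, 17.7%, 15.4% and 5.86% were called higher in these 3 comparisons, and 15.3% lower in hippocampus than in cortex.

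Regulators of multiciliation had 7 of 9 genes tested, with 5, 6 and 2 called higher in the same 3 comparisons. Over all genes these shares were 17.7%, 15.4% and 5.86%. Rfx2, an X-box factor, was at 42.2, 15.9 and 2.81 TPM in the SC groups of hypothalamus, hippocampus and cortex (3.53 ± 0.33 from hypothalamus to cortex, edgeR adjusted p = 7.15e-10). Trp73 and Myb, both known to act upstream of Foxj1, were at 27.1, 10.1 and 0.232 TPM and at 25.2, 9.13 and 0.308 TPM. Mcidas and Cdc20b, which act while multiciliated cells form, stayed at or below a mean of 0.0530 TPM in every group.

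Ependymal markers outside the list moved in the same direction as the axoneme genes. The 9 markers summed to 6025 TPM in hypothalamus SC (4259 to 7652), 1920 in hippocampus SC (1212 to 2588) and 377 in cortex SC (261 to 626). All 9 were called higher in hypothalamus than in cortex, 7 in hippocampus than in cortex and 4 in hypothalamus than in hippocampus. The shares of all genes called higher were 17.7%, 15.4% and 5.86%. Rarres2, Tmem212 and Ccdc153, abundant in ependyma, were at 1525, 1185 and 1013 TPM in hypothalamus SC and at 119, 25.5 and 21.7 in cortex SC. Markers of the choroid plexus, an epithelium with cilia of its own, had another order: 289 TPM in hypothalamus SC (90.5 to 1113), 17191 in hippocampus SC (161 to 34388) and 1502 in cortex SC (274 to 4760), with Ttr alone giving 15382 of the hippocampus mean. Oligodendrocyte precursor markers (7 genes) summed to 274, 44.9 and 9.30 TPM in hypothalamus, hippocampus and cortex SC. This is the same order of regions as for the axoneme genes and the ependymal markers. All 7 were called higher in hypothalamus than in cortex, 6 in hippocampus than in cortex and 7 in hypothalamus than in hippocampus. Their median log2 fold changes were 4.42, 1.63 and 2.43. Markers of tanycytes, ventricle-lining cells of the hypothalamus, did not all move one way. The 9 markers summed to 185 TPM in hypothalamus SC (108 to 307), 89.4 in hippocampus SC and 160 in cortex SC (137 to 187). From hypothalamus to cortex on SC, 6 of them were called higher and 2 lower, against 17.7% and 18.3% of all genes. Rax, one of the 9, was at 22.6 TPM in hypothalamus SC and at 0.404 and 0.532 in hippocampus and cortex SC. The part of each cell type in the axoneme levels was not tested.

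Foxj1 did not keep a fixed share of the other 73 genes, a ratio looked at after the values were seen and given without a test. It was 3.09% to 5.01% of their summed TPM in hypothalamus SC and 2.84% to 4.68% in hippocampus SC. In hippocampus HFHS the 7 libraries had 3.77%, 3.49%, 0.99%, 0.37%, 0.42%, 2.29% and 1.01%, so that 5 of 7 lay below every hippocampus SC library. Cortex SC ran from 0.06% to 1.88% and cortex HFHS from 0.04% to 3.36%. The base of this share differs by region. The 7 genes highest in cortex SC, named above, made up 66.8% of the list's sum there and 20.6% in hypothalamus SC. The cortex shares thus cannot be set directly against those of the other regions.

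**Figure D5:**
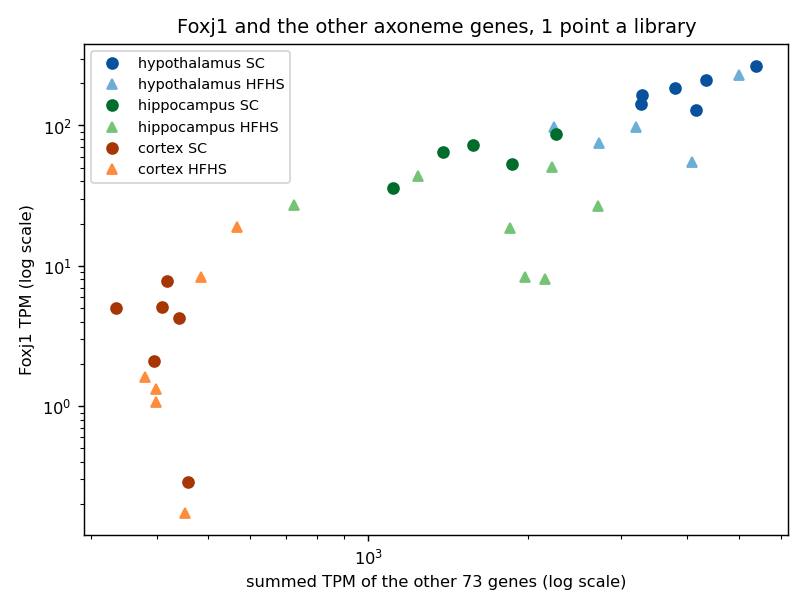
Foxj1 TPM (vertical, log scale) against the summed TPM of the other 73 genes (horizontal, log scale), 1 point a library, by region and diet. Hippocampus HFHS points reach down to 8.06 TPM at a summed level like that of hippocampus SC, whose lowest Foxj1 value is 35.7. The cortex points lie apart at the low end of the horizontal axis. Their Foxj1 runs from 0.174 to 19.0 TPM and overlaps that of hippocampus HFHS.

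Diet gave no call within any region. In hypothalamus 0 of 72 axoneme genes passed in either direction (0% of all genes passed too), in hippocampus 0 of 72 (0% of all genes) and in cortex 0 of 70 (0% of all genes). In cortex, Cfap77 and Cfap99 were also too low to be tested. An unadjusted p under 0.05 was reached by 4, 2 and 4 axoneme genes (5.56%, 2.78% and 5.71%), against 8.50%, 5.17% and 9.26% of all genes. DESeq2 called 0.461%, 0.0804% and 3.35% of all genes in the 3 regions, and among the axoneme genes Dnaaf5 in cortex. For no axoneme gene did the SC and HFHS libraries of a region separate without overlap. Of all genes, 0.114%, 0.0315% and 0.151% lay higher on HFHS without overlap in hypothalamus, hippocampus and cortex, and 0.483%, 0.41% and 0.325% lower.

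The direction of the fitted levels is given without a test of the list. In hypothalamus 60 of 72 genes had a lower fitted level on HFHS (median log2 fold change -0.15), in hippocampus 56 of 72 a higher one (0.29) and in cortex 51 of 70 a higher one (0.28), where the medians of all genes were -0.01, 0.00 and -0.02. On log2 ratios of mean TPM, which are not centred, the medians of the list were -0.23, 0.24 and 0.51 in the 3 regions, beside -0.13, -0.07 and 0.09 for all genes. The ependymal markers outside the list had medians of -0.13, 0.56 and -0.22 by edgeR, and the choroid plexus markers 1.72, -0.52 and -0.30. Oligodendrocyte precursor markers had -1.63, -0.95 and 0.15, astrocyte markers 0.93, 0.04 and -0.08, and microglia markers 0.36, 0.75 and 0.37. The medians of tanycyte, oligodendrocyte, endothelial, mural and neuron markers lay between -0.51 and 0.62. None of these markers passed by edgeR, and their part in the axoneme levels was not tested. In hypothalamus every group of the axoneme had a negative median, from -0.09 to -0.67.

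The smallest p in hypothalamus belonged to Cfap65, a central apparatus gene. Its 5 HFHS libraries had 9.20, 13.3, 23.8, 26.8 and 13.1 TPM and its SC libraries ran from 17.9 over 38.6 to 56.7 TPM (log2 fold change -1.02 ± 0.30, edgeR adjusted p = 0.472). Hypothalamus SC 6, the library of short transcripts, was the lowest on SC, and it and hypothalamus SC 1, at 25.6, lay within the HFHS range. Ccdc40 had 21.3, 25.8, 33.0, 44.1 and 30.3 TPM on HFHS and 45.6, 49.3, 77.9, 53.9, 62.0 and 19.5 on SC, where hypothalamus SC 6 lay below every HFHS library and the other 5 above them all (-0.67 ± 0.26, edgeR adjusted p = 0.518). Over all alternatives the adjusted p ran from 0.074 to 0.749 for Cfap65 and from 0.080 to 0.80 for Ccdc40. Cfap43 (-0.45 ± 0.19, adjusted p = 0.558) and Cfap69 (-0.26 ± 0.16, adjusted p = 0.715) did not pass either.

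Foxj1 on HFHS had 97.9, 98.4, 74.7, 230 and 55.2 TPM in the hypothalamus libraries, where SC ran from 128 to 264. All but 1 of the HFHS libraries, hypothalamus HFHS 4, lay below every SC library (-0.67 ± 0.30, edgeR adjusted p = 0.569). In hippocampus Foxj1 ran from 8.06 over 26.8 to 50.7 TPM on HFHS and from 35.7 to 86.5 on SC (-1.16 ± 0.42, edgeR adjusted p = 0.876). This was the smallest p of the list there, and it ran against the hippocampus median of the list. In cortex it was 0.18 ± 0.81 (adjusted p = 0.973), and -0.89 without cortex HFHS 1, whose 19.0 TPM was the highest of the cortex libraries. Its adjusted p ran from 0.259 to 0.806 over the alternatives in hypothalamus and from 0.271 to 0.992 in hippocampus.

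The other genes with the smallest p in hippocampus were Dnah8 (-0.92 ± 0.37), Dnah10 (0.74 ± 0.38), Cfap20 (0.41 ± 0.21) and Cfap161 (0.66 ± 0.37), each with an edgeR adjusted p of 0.876. In cortex Hydin had 0.224 ± 0.140 TPM on HFHS and 0.0901 ± 0.0517 on SC (1.20 ± 0.43, edgeR adjusted p = 0.351, 0.098 to 0.940 over the alternatives). Dnah7c (1.39 ± 0.56), Tekt5 (-0.91 ± 0.40) and Tekt3 (2.02 ± 0.94) had adjusted p = 0.435, 0.501 and 0.539.

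Dnaaf5, an assembly factor, had the smallest p in cortex and was the one gene whose call turned with the method. Its SC libraries had 7.73, 4.80, 5.44, 7.04, 1.56 and 0.216 TPM and its HFHS libraries 1.28, 0.644, 1.41, 0.736, 1.88 and 0.918. Cortex SC 5 lay within the HFHS range and cortex SC 6 below it, while the other 4 lay above. The log2 fold change was -1.89 ± 0.52 (edgeR adjusted p = 0.182). DESeq2 called it (adjusted p = 0.0123), and edgeR called it without the 3 libraries of short transcripts (adjusted p = 0.0218) and without cortex SC 6 alone (-2.16, adjusted p = 0.026). In these 2 edgeR fits 1.71% and 0.743% of all genes were called lower. Over all alternatives its adjusted p ran from 0.012 to 0.778.

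Dnaaf5 also fell into high and low libraries within hippocampus, with 13.7, 0.994, 15.6, 1.73 and 21.5 TPM on SC and values from 1.56 to 15.0 on HFHS. In hypothalamus its lowest values were 4.97 TPM in hypothalamus SC 3 and 2.75 in hypothalamus HFHS 5. Another gene, the kinase gene Dapk3, noticed after the values were seen, was high in the same libraries: in cortex SC it had 40.3, 38.0, 36.8, 27.8, 4.41 and 0.798 TPM, and on HFHS 0.259 to 2.57. Its part in the Dnaaf5 difference was not tested.

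The test of the difference in diet effect between regions called no axoneme gene (edgeR, 0% of all genes). From hypothalamus to cortex 9 of 72 had an unadjusted p under 0.05 (12.5%, against 11.6% of all genes), from hippocampus to cortex 2 (2.78%, against 9.30%) and from hypothalamus to hippocampus 0 (against 2.01%). DESeq2 called 0.684%, 0.107% and 0.0186% of all genes and none of the axoneme genes. The smallest p from hypothalamus to cortex belonged to Dnah7c (-1.60, edgeR adjusted p = 0.279), Hydin (-1.42, adjusted p = 0.285) and Ccdc40 (-1.99, adjusted p = 0.321). For Foxj1 the differences were -0.84, -1.32 and 0.48 (adjusted p = 0.753, 0.621 and 1). The pathway and marker lists gave no diet call in any region either.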

How the data were processed

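RNA of ACSA2-sorted cells was amplified with a SMART-Seq v4 low-input kit, which keeps no strand, per the labels' protocols. The deposited files list an estimated count and a TPM value per transcript; the submitters' processing notes name FastQC, Salmon and GRCm38, with no versions. Transcript identifiers were matched to GENCODE M21 without their version: 139852 of 140948 matched, and 0.214% to 0.535% of each library's reads lay on the others. The deposited estimated counts and TPM were summed per gene, and the summed counts were rounded.

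Counts were tested with edgeR 4.0.16 (robust quasi-likelihood test, filterByExpr, TMM scaling, R 4.3.3), with Benjamini-Hochberg adjustment over all genes and a threshold of 0.05. Diet was fitted within each region, and regions and the difference of diet effects in 1 model of 6 groups and 35 libraries. A standard error is the log2 fold change divided by the root of F. The scripts were tested on simulated data. Alternatives were DESeq2 1.42.0, RLE scaling, no low-count filter, limma 3.58.1 on log2(TPM + 1), the replicate number as a block, the libraries without the 3 of short transcripts, and each library left out in turn. Leaving out the 3 hippocampus libraries richest in Ttr and summing only protein-coding transcripts were added after seeing the data.

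The genes named are up to 3 of highest mean TPM in each part of the axoneme, with Foxj1, Hydin, Ccdc39 and Ccdc40; for diet the 5 of smallest p and Foxj1; and up to 3 per outside list. Others were chosen after their values were seen. Members and lists were chosen with earlier results of these data known. Motif windows came from RefSeq. Figures were drawn with matplotlib 3.10.9.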

Additional observations from a re-analysis of the deposited data

Results flagged for a closer look

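In 14 of 174 sets of values, each from 1 group of 5 to 7 libraries, 1 library stood apart from the others by Dixon's criterion. Chance alone meets it in about 1 of 20. The 174 sets share the same 35 libraries and are not independent of each other. In cortex SC 6, a library of short transcripts, Cfap69 at 0.0742 TPM and Drc3 at 2.62 were the lowest of their group, while Dnah7a at 7.57, Dnaic1 at 73.9 and Rsph9 at 101 were the highest. In cortex HFHS 6, also of short transcripts, Cfap298 at 48.0 TPM and Dnaic1 at 78.4 stood above the rest. Cortex SC 4 had the highest Drc7 of its group, at 14.9 TPM. In hypothalamus the highest values were Cfap44 at 71.1 TPM in hypothalamus SC 3 and Foxj1 at 229.6 in hypothalamus HFHS 4. In hippocampus HFHS 1, the library with the lowest summed level of its group, Cfap70 at 3.40 TPM and Dnaic1 at 10.4 were the lowest. In hippocampus HFHS 3, which had the highest summed level, Dnah7a at 23.65 TPM and Hydin at 3.67 were the highest.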

How the results depend on the processing

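Of 907 alternative counts, medians and ratios, 886 stayed near the reported value and 21 moved; of 3964 alternative values of named genes, 3785 kept direction and side of the threshold, 85 newly passed, 73 no longer passed and 21 changed sign. The cause was not tested for any of them. In cortex 1 gene, Dnaaf5, was called lower on HFHS by DESeq2 and without the 3 libraries of short transcripts. By limma on log2(TPM + 1), which compresses low genes, the median log2 fold changes were 3.43 and 3.12 from hypothalamus to cortex on SC and HFHS and 1.78 and 1.94 from hippocampus to cortex. From hypothalamus to hippocampus the genes called higher numbered 60 on SC and 41 on HFHS by limma (10.8% and 6.5% of all genes), 25 and 7 without the 3 hippocampus libraries richest in Ttr (3.44% and 2.93%), and on HFHS 24 without the libraries of short transcripts (6.26%). Leaving out each library in turn gave 24 to 40 genes on SC and 4 to 16 on HFHS in that comparison, 0 to 1 called lower for diet in cortex, and 0 to 1 called lower from hippocampus to cortex on SC.

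The 21 changes of sign were all in differences that did not pass the test. By limma they were Dnah8 for diet in hippocampus (0.073), Foxj1 for diet in cortex (-0.22), Dnaic1 from hippocampus to cortex on SC (-0.26) and HFHS (-0.11), and Drc7 from hypothalamus to hippocampus on SC (0.20). Without the libraries richest in Ttr they were Dnaic1 (-0.077) and Cfap298 (-0.00951) from hippocampus to cortex on SC and Drc7 from hypothalamus to hippocampus on SC (0.81). With 1 library left out, Foxj1 for diet in cortex ran from -0.89 to 0.50, below 0 without cortex HFHS 1 or SC 6 (-0.05), and its diet effect in hypothalamus against cortex from -1.20 to 0.24, above 0 without cortex HFHS 1. Dnaic1 from hippocampus to cortex on SC ran from -0.030 to 1.02, below 0 without cortex SC 1 or 4 (-0.00784). Drc7 from hypothalamus to hippocampus ran from -0.24 to 0.21 on SC, above 0 without hypothalamus SC 6 or hippocampus SC 4 or 5, and from -0.041 to 0.29 on HFHS, below 0 without hypothalamus HFHS 4 or hippocampus HFHS 1 (-0.02).

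The labels do not say whether same-numbered libraries share animals or a day. Their correlations ran from -0.06415 to 0.5449 and were not all over 0.1 in any pairing of groups, though 5 of 6 were between the diets in cortex and 4 of 5 in hippocampus. With the replicate number as a block, the counts called higher were 65, 59 and 38 on SC and 66, 64 and 16 on HFHS in the order used above, with 0 for diet, while over all genes the block gave 412 diet calls in cortex (111 higher, 301 lower) in place of 0. The sign changed for Foxj1 for diet in cortex (-0.71) and for Drc7 from hypothalamus to hippocampus on SC (0.40) and HFHS (-0.14). Not every library correlated best with its own number. Reads limit the low genes in cortex, and not by TPM alone: over the 12 cortex libraries the long Dnah1 had a median of 180 reads at a median of 0.822 TPM, and the short Tekt2 21.5 reads at 0.391 TPM.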
